A study of Mus musculus with 4 samples.

Results

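The B-lineage and pre-B receptor genes are 9 genes that developing B lymphocytes use to rearrange and read their antigen receptor: Cd79a, Cd79b, Ms4a1, Pax5, Ebf1, Vpreb1, Vpreb3, Rag1 and Dntt. They were taken as the genes whose RefSeq accession names a probe of the array, and all 9 were found, on 14 probes, among 33378 genes and transcripts. RNA of the mouse was read on 4 single-colour Agilent arrays. Induced pluripotent stem (iPS) lines 7 and 13 were derived from bone marrow mononuclear cells of C57BL/6 mice that carried an EGFP reporter of Oct4 (n = 2 arrays, 1 per line). Embryonic stem (ES) cells were the E14 line of strain 129 (n = 1), and bone marrow mononuclear cells (BMMNCs) came from C57BL/6 mice, with no reporter named in their labels (n = 1). ES and iPS cells had grown on irradiated embryonic fibroblasts in medium with serum and LIF and were freed of these feeders by plating on gelatin. Apart from the induction of the iPS lines to pluripotency, no treatment set the groups apart. No age was given, and each iPS line is a single line number with no repeat culture. Strain, reporter, origin, induction and culture all differ between some of these groups and cannot be told apart.

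A pro-B cell of the marrow joins V, D and J segments of its immunoglobulin heavy chain gene, with the recombinase of Rag1 and Rag2 making the cuts and Dntt adding bases at the joints. The finished heavy chain pairs with the surrogate light chain, made of Vpreb and Igll1 (lambda5) proteins, and is brought to the surface with Cd79a and Cd79b, whose cytoplasmic tails pass on the signal. Ebf1 and Pax5 are transcription factors that turn on B-lineage genes and keep the cell in the B lineage. In adult mice the bone marrow is the main site of these steps, whereas pluripotent cells do not rearrange antigen receptor genes.

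Levels are log2 signals relative to the 75th percentile of each array, which was 1120 and 1123 units in iPS lines 7 and 13, 1048 in ES cells and 602 in BMMNCs. The share of probes well above background, a mark of the scanner software, lay between 54.6% and 59.0%. The labelled cell types were borne out by marker genes: all 8 pluripotency markers were well above background in both iPS lines and in ES cells, against 3 of 8 in BMMNCs, where Pou5f1 and Sox2 were not. All 6 pan-blood and all 8 granulocyte markers were well above background in BMMNCs, against 5 of 6 and 1 of 8 on each iPS and ES array. The pan-blood count thus hardly set the cell types apart. Their summed signal, in multiples of the 75th percentile, was 291 in BMMNCs, 1.64 and 1.74 in iPS lines 7 and 13 and 1.62 in ES cells. With so few arrays every comparison is coarse. The 2 iPS lines give the only measure of spread, and the single ES and BMMNC arrays were taken to vary like them.

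The upstream sequences of 7 of the 9 members were at hand from RefSeq (GRCm38.p6). Ebf1 also holds a searched motif but is not shown. The 4 sequences that are shown all hold a searched motif. Each runs 5′ to 3′ over the 250 bases before the annotated start. Capitals mark CAGGTG, the E-box that E2A proteins bind (Cd79a, Vpreb1 and Rag1), TGGGAA, a core sequence of Ikaros sites (Rag1), or the octamer ATGCAAAT, read here on the opposite strand as ATTTGCAT (Vpreb3).
Cd79a, chr7:24897247-24897496 (+ strand): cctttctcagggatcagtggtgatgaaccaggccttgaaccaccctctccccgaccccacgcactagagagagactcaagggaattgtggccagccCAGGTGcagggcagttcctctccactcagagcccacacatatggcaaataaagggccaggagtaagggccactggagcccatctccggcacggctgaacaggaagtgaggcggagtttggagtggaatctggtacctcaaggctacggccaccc
Vpreb1, chr16:16869256-16869505 (- strand): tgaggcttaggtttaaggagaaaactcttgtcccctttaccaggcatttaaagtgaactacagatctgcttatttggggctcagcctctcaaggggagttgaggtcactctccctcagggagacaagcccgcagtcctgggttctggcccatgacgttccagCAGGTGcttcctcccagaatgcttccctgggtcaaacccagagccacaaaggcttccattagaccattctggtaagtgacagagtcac
Vpreb3, chr10:75948050-75948299 (+ strand): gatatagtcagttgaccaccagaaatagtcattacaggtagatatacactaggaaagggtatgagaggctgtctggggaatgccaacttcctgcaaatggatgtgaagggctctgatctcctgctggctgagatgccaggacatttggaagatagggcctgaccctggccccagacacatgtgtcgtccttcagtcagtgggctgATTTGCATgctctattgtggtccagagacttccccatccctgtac
Rag1, chr2:101649533-101649782 (- strand): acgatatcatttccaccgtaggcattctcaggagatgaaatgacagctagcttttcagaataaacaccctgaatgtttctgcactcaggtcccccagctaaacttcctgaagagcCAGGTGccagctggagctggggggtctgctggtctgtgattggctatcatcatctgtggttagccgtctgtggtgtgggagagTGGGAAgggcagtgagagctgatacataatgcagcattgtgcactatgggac

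The motifs were searched on both strands. CAGGTG stood in 3 of the 7 genes, 154 to 149 bases before the start in Cd79a, 88 to 83 in Vpreb1 and 135 to 130 in Rag1, while 17.2% of all 32851 upstream windows of the same length held it. The octamer lay 45 to 38 bases before the start of Vpreb3, in a set of which 1.60% of windows held it. TGGGAA was found in Rag1 (52 to 47) and in 1 of the 2 windows of Ebf1, against 21.6% of windows. The palindromic half-sites of EBF proteins, CCCNNGGG, were in none of the 7 genes and in 11.8% of windows. Only exact matches were counted, so a site that departs from these letters was not found. These matches describe letters only. Ms4a1 and Cd79b are named here without a sequence.

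In iPS cells against BMMNCs, the cells from which such lines are made, every B-lineage gene stood lower in both lines. All 9 fell at an adjusted p of 0.05 (limma with Benjamini-Hochberg adjustment over 21216 genes), where 37.8% of all genes tested were called lower and 38.0% higher. All 9 were also at least 4-fold lower in each line, which 15.0% of genes were; 8 were with normexp background correction and with the authors' deposited table, where Ebf1 differed by -1.71 and -1.91. The median difference of the 9 was -7.39 on the log2 scale, beside -0.01 for all genes tested. All 9 passed the filter on low signals, which asked for a level well above background on at least 1 array. Of these, 4 passed through the BMMNC array alone, as 1746 genes did, and of such genes 95.6% were called lower, so these 4 had little room to do otherwise. The other 5, Cd79b, Ebf1, Vpreb1, Vpreb3 and Dntt, were well above background on every array, where 38.3% of 14859 genes were called lower.

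**Figure D1:**
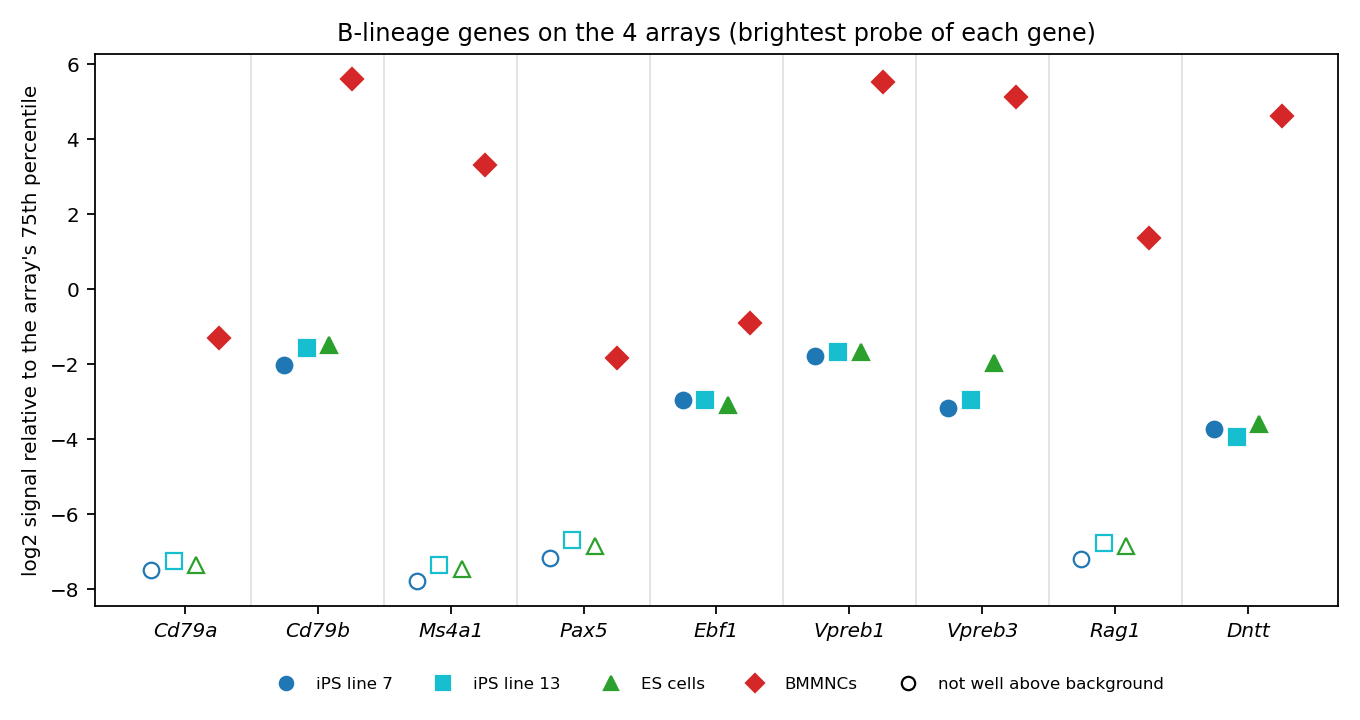
Level of each B-lineage gene (x axis) on each array, as log2 signal relative to the array's 75th percentile (y axis), with 1 point per array and open points where the probe was not well above background. Heights are to be compared within a gene: the BMMNC point lies above the iPS and ES points for all 9 genes, by the least for Ebf1, and Cd79a, Ms4a1, Pax5 and Rag1 have open points in iPS and ES cells.

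Cd79a and Cd79b encode the Ig-alpha and Ig-beta chains that signal for both the pre-B and the B cell receptor. Cd79b was at -2.01 in iPS line 7 and -1.56 in iPS line 13, against -1.49 in ES cells and 5.60 in BMMNCs. BMMNCs stood far above the other arrays, among which iPS line 7 was lowest. Cd79b fell by 7.39 in iPS cells relative to BMMNCs (SE 0.25, 167-fold, limma adjusted p = 0.00107). Cd79a was not well above background on the iPS and ES arrays and was at -1.30 in BMMNCs. It was at least 15.3-fold lower in iPS cells than in BMMNCs (limma adjusted p = 0.000859). Here and below, "at least" sets the bright array against the lowest level of any probe well above background on the dim arrays. Where the gene's own level there was higher, that level was used, and for iPS cells the 2 lines were averaged. This is no strict limit, since a probe can lie above that lowest level and still not be well above background. The dimmer Vpreb3 probe did so in iPS line 13, at -4.59 against a lowest level of -5.01. Dim spots carry a small substitute value in place of a level. The p-values printed beside such bounds test the fitted differences, which rest on these substitute values, and not the bounds. These bounds belong to the processed signals: with normexp, which adds an offset of 50 to each signal, the iPS differences were smaller than the bounds, at 7.60-fold for Cd79a, 4.85-fold for Pax5, 34.4-fold for Rag1 and 207-fold for Ms4a1. The measured members were also smaller there, at 172-fold for Vpreb3, 161-fold for Dntt, 128-fold for Cd79b, 120-fold for Vpreb1 and 3.28-fold for Ebf1.

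Ms4a1, or CD20, is a membrane protein that appears on B cells after the pre-B stage and stays until plasma cell formation. Its single probe gave 5.10 and 6.95 signal units in iPS lines 7 and 13, against 5.99 in ES cells, none of them well above background, and 5926 in BMMNCs. The gene was at least 370.0-fold lower in iPS cells than in BMMNCs (limma adjusted p = 0.000776), the widest such bound among the 4 dim members.

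Of the transcription factors, Ebf1 had the smallest measured difference of all members. Pax5, which commits cells to the B lineage, was not well above background in iPS or ES cells and was at -1.82 in BMMNCs, at least 10.7-fold lower in iPS cells (limma adjusted p = 0.00175). Ebf1, which acts before and together with Pax5, was at -2.94 and -2.96 in iPS lines 7 and 13, against -3.07 in ES cells and -0.91 in BMMNCs. The 3 pluripotent arrays lay close together, and all were well above background. Ebf1 fell by 2.04 in iPS cells (SE 0.092, 4.12-fold, limma adjusted p = 0.00152), just past the 4-fold size rule. Ebf1 is also known from stromal and adipocyte precursor cells, and feeder fibroblast markers were present in the cultures. All 8 of these markers were well above background in iPS and ES cells, against 4 of 8 in BMMNCs. Their summed signal, in multiples of the 75th percentile, was 381 and 361 in iPS lines 7 and 13, 327.5 in ES cells and 8.23 in BMMNCs. Their part in the Ebf1 signal was not tested. In bulk RNA, fewer cells of a type and less RNA per cell cannot be told apart.

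Vpreb1 and Vpreb3 were read on every array and were bright in BMMNCs alone. No probe was matched to Igll1, the other protein of the surrogate light chain, so its level is not known. Vpreb1, the V-like chain of the surrogate light chain, was at -1.79 and -1.67 in iPS lines 7 and 13, against -1.68 in ES cells and 5.52 in BMMNCs. It fell by 7.25 in iPS cells (SE 0.11, 152-fold, limma adjusted p = 0.000713). Vpreb1 has a near-identical mouse copy, Vpreb2, so the probes of either may take up RNA of both; Vpreb2 was at -4.71 and -4.84 in iPS lines 7 and 13, against -4.56 in ES cells and 0.06 in BMMNCs. Vpreb3, a related protein that binds nascent immunoglobulin chains inside the cell, was at -3.17 and -2.95 in iPS lines 7 and 13, against -1.98 in ES cells and 5.12 in BMMNCs. It fell by 8.18 in iPS cells relative to BMMNCs (SE 0.15, 291-fold, limma adjusted p = 0.000713).

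Both genes of V(D)J recombination were far lower in iPS cells. Rag1, the catalytic subunit of the recombinase, gave 7.70 and 10.4 signal units in iPS lines 7 and 13, against 9.15 in ES cells, all not well above background, and 1560 in BMMNCs (level 1.37). It was at least 97.4-fold lower in iPS cells than in BMMNCs (limma adjusted p = 0.000916). Dntt, the terminal transferase that adds bases without a template, was at -3.73 and -3.94 in iPS lines 7 and 13, against -3.60 in ES cells and 4.60 in BMMNCs. The pluripotent arrays lay close together. Dntt fell by 8.44 in iPS cells (SE 0.14, 347-fold, limma adjusted p = 0.000713).

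The other probes of Vpreb3, Rag1 and Dntt, the 3 members with several, ran in the same direction. For Vpreb3 the differences of iPS cells from BMMNCs were -8.18 and -7.09. Rag1 had 1 probe with 10 spots, whose spread between spots was 0.074 (SD, log2) in BMMNCs; that probe was at 1.05 in BMMNCs and not well above background elsewhere. A further Rag1 probe was at -3.01 in BMMNCs, and 74.8 signal units there, the dimmest BMMNC reading of any member probe. Dntt was well above background in iPS and ES cells by its brightest probe alone. The other Dntt probes were at -0.61 and 2.56 in BMMNCs and not well above background in iPS or ES cells, so the low Dntt level of the pluripotent arrays was read by 1 of 3 probes. In all, 14 of 14 member probes were well above background in BMMNCs, against 6 in iPS line 7, 5 in iPS line 13 and 6 in ES cells.

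**Figure D2:**
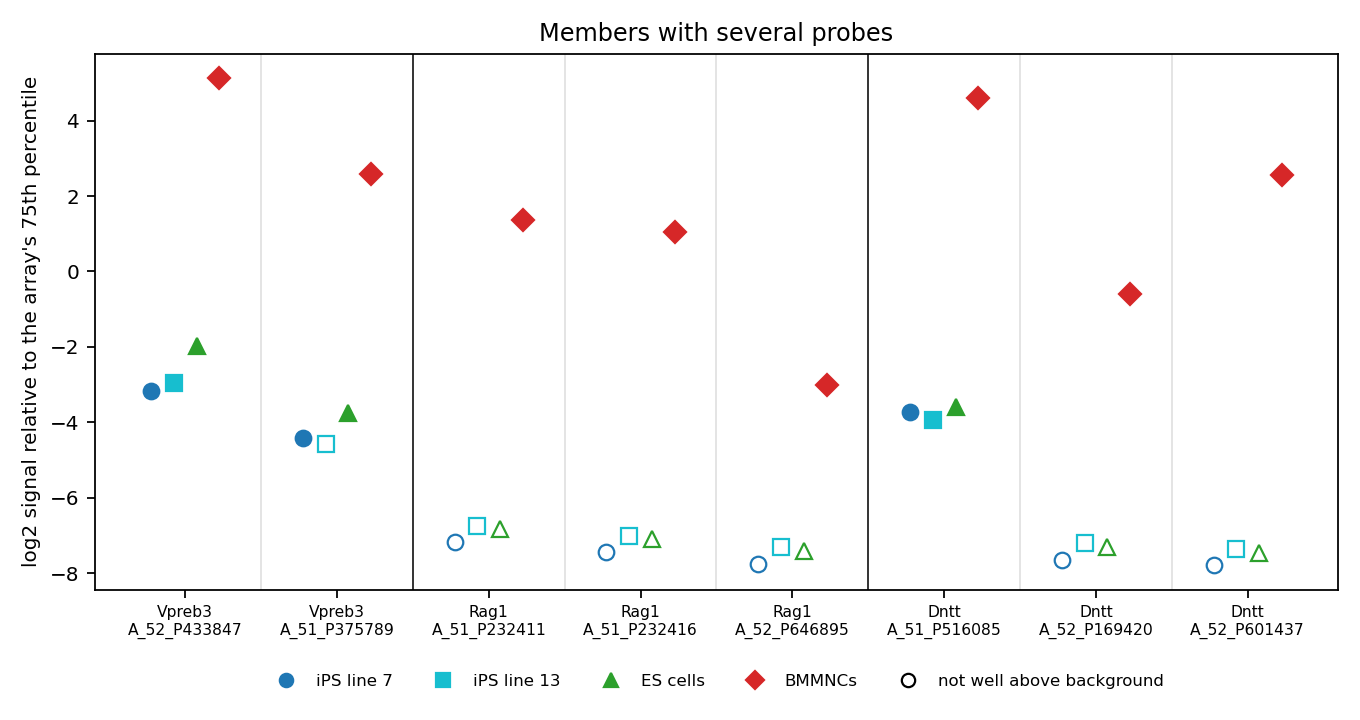
Levels of each probe of Vpreb3, Rag1 and Dntt (x axis, gene and probe name) on the 4 arrays, as log2 signal relative to the array's 75th percentile (y axis), with 1 point per array and open points where a probe was not well above background. BMMNCs are highest for all 8 probes, and both Vpreb3 probes stand higher in ES cells than in either iPS line.

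ES cells, which never passed through the marrow, gave a similar picture against the same BMMNC array. This comparison shares that array with the one above, and the fit took its spread from the iPS lines. All 9 genes were lower in ES cells at an adjusted p of 0.05 (limma), where 34.7% of genes were. The 4 genes seen on the BMMNC array alone again had little room, since 92.7% of such genes were called lower. All 9 were at least 4-fold lower, beside 15.8% of genes, and 8 were with normexp, where Ebf1 differed by -1.73. The log2 difference, ES minus BMMNC, was -7.09 for Cd79b (SE 0.29, limma adjusted p = 0.00163) and -2.16 for Ebf1 (SE 0.11, adjusted p = 0.00204). It was -7.20 for Vpreb1 (SE 0.13, limma adjusted p = 0.0011) and -7.10 for the related Vpreb3 (SE 0.17, adjusted p = 0.00115). For Dntt it was -8.20 (SE 0.16, limma adjusted p = 0.0011). Ms4a1 was at least 346.5-fold lower in ES cells, Rag1 at least 91.2-fold, Cd79a at least 14.3-fold and Pax5 at least 9.98-fold lower. With normexp Ms4a1 was 204-fold, Rag1 37.0-fold, Cd79a 7.05-fold, Pax5 4.76-fold and Dntt 142-fold lower in ES cells. Vpreb1 was 114-fold, Cd79b 105-fold, Vpreb3 103-fold and Ebf1 3.32-fold lower there, again smaller than without normexp.

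The iPS lines, which came from marrow, were next set against ES cells, which did not, for their B-lineage transcripts. The BMMNC array also read granulocyte and erythroid markers, with sums of 2125 and 1494 in multiples of the 75th percentile. Whether the cell behind either line had made B-lineage transcripts was not tested. No member was called by limma at an adjusted p of 0.05, where 4.77% of all genes were, 1.95% higher and 2.83% lower in iPS cells (at an unadjusted p under 0.05, 1 of 9 members, Vpreb3, and 31.3% of all genes). None was at least 2-fold apart in both lines, a size that 2.34% of genes reached upwards and 4.19% downwards. Vpreb3 had the largest difference of the 5 measured members, in the direction of less signal in iPS cells: -1.08 (SE 0.15, 2.12-fold, 95% interval -1.57 to -0.60, limma adjusted p = 0.0683). Line 7 differed from ES cells by -1.20 and line 13 by -0.97, and the other Vpreb3 probe gave -0.69 and -0.85, with line 13 not well above background there. Vpreb3 passed the test under 3 of the 8 other settings, with adjusted p from 3.49e-08 to 0.222 over the 8, and without line 13 it was more than 2-fold apart. Both lines read below ES cells on both probes.

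For the other 4 members above background in all cells the intervals of iPS minus ES spanned 0. Ebf1 differed by 0.12 (95% interval -0.18 to 0.43, limma adjusted p = 0.446) and Vpreb1 by -0.05 (-0.41 to 0.32, adjusted p = 0.787). Dntt differed by -0.23 (-0.70 to 0.23, adjusted p = 0.356), and Cd79b by -0.30 (-1.12 to 0.53, adjusted p = 0.49). A p above the threshold does not show that these levels were equal. For Vpreb1 the sign turned with median scaling and without line 7. Cd79a, Ms4a1, Pax5 and Rag1 were below background on both sides and have no measured difference.

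Between the iPS lines the members differed little. Of the 5 measured on both, Cd79b was lower in line 7 than in line 13 by 0.45, Vpreb3 differed by -0.22, Vpreb1 by -0.12, Dntt by 0.21 and Ebf1 by 0.02 (line 7 minus line 13). All 8 member probes that were below background on the iPS and ES arrays read lower in line 7, by 0.26 to 0.46, with signals of 5.04 to 10.8 units on these arrays. These are substitute values and not levels.

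**Figure D3:**
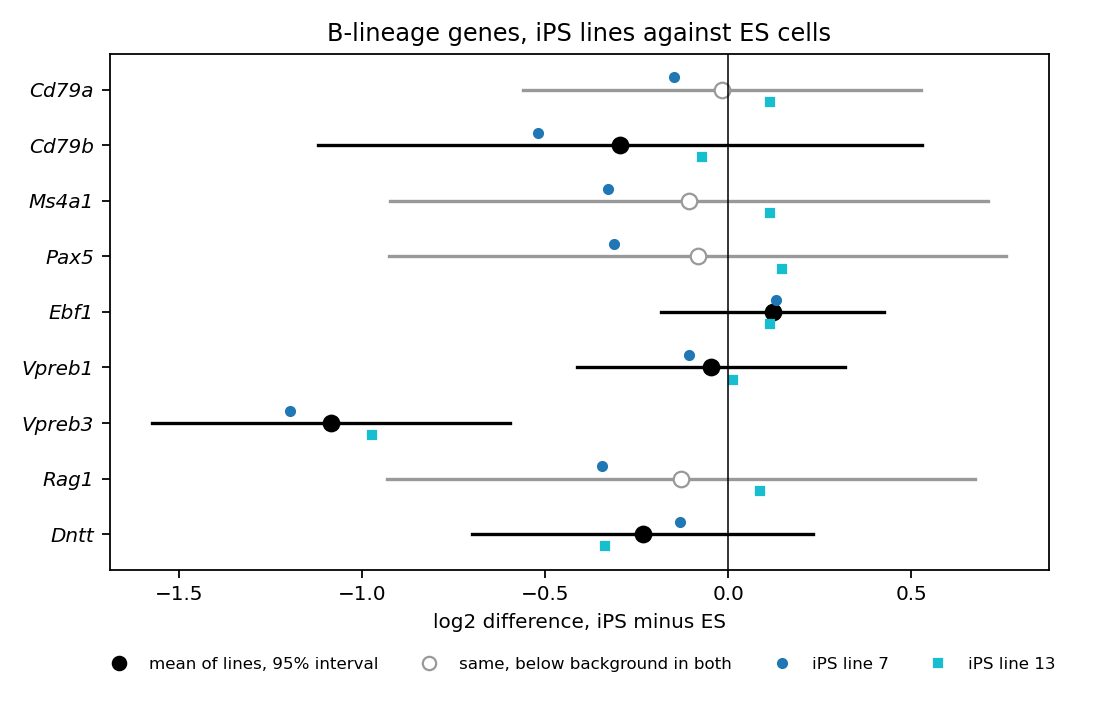
Difference of iPS lines from ES cells for each B-lineage gene, in log2 units (x axis). Large points with bars are the mean of both lines with its 95% interval from limma (open where the gene was below background on the iPS and ES arrays), and small points are line 7 and line 13; Vpreb3, at -1.08, is the 1 gene whose interval leaves out 0.

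The other genes of the pathway were taken from lists. Over all genes tested, 37.8% were called lower and 38.0% higher in iPS cells than in BMMNCs, and 4.77% were called against ES cells. Of 21 tested genes of pre-B and B cell receptor signalling, 21 were called lower in iPS cells than in BMMNCs and none higher, with a median of -4.84. Of the 21, 16 were well above background on every array. In every list, genes seen on the BMMNC array alone had little room, since 95.6% of such genes were called lower. The kinase Btk was at least 300.9-fold lower and the inhibitory receptor Cd22 at least 63.2-fold lower. Blnk, the adaptor that links Syk to Plcg2, was at 1.60 and 1.63 in iPS lines 7 and 13, against 0.61 in ES cells and 5.25 in BMMNCs. It was lower in iPS cells than in BMMNCs (log2 difference -3.63) and 2.01-fold higher than in ES cells ( limma adjusted p = 0.0493). Prkcb, the kinase that acts below Plcg2 in B cells, was at -4.77 and -4.81 in iPS lines 7 and 13, against -2.43 in ES cells and 2.88 in BMMNCs, with line 13 not well above background, and fell by 2.36 against ES cells (adjusted p = 0.0425). Blk was also called against ES cells but was below background on both sides. These 3 were the calls among the 21 genes in iPS against ES cells.

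Among 17 tested transcription factors of the B lineage, 15 fell in iPS cells relative to BMMNCs and 2 were not called, with a median of -3.22. Of the 17, 11 were well above background on every array. Ikzf1 (Ikaros) was at least 83.7-fold lower, the co-activator Pou2af1 at least 1425-fold lower, and Spib, which works with Spi1 in B cells, fell by 8.57. Tcf3, which encodes the E2A proteins, fell by 1.12 (SE 0.10) and stayed high in every sample, at 3.22 and 3.31 in iPS lines 7 and 13, against 3.37 in ES cells and 4.39 in BMMNCs. Foxo1 (-0.22, limma adjusted p = 0.123) and Sox4 (-0.34, adjusted p = 0.12) were not called. Against ES cells Irf8 alone was called, lower by 1.17.

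Genes that join DNA ends after the Rag cut, which every cell uses for repair, were split in direction. Of 13 tested, 3 were higher and 5 lower in iPS cells than in BMMNCs, and 5 were not called, with a median of -0.20. All 13 were well above background on every array, where 38.3% of 14859 genes were called lower. The count called lower was near that share. Xrcc5 (Ku80) rose by 2.45 (SE 0.093), and the kinase Atm by 0.90. Polm, the polymerase most like Dntt, fell by 1.44 and Hmgb1, a cofactor of Rag cutting, by 1.48. Prkdc was at -0.45 and -0.63 in iPS lines 7 and 13, against -0.63 in ES cells and -0.50 in BMMNCs. Atm was also called higher than in ES cells, by 1.42. Rag2, the partner of Rag1, stayed in the background on all arrays, BMMNCs included.

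Early lymphoid genes gave 11 lower and 1 not called of 12 (median -3.92), with 10 of the 12 well above background on every array. Il7r, the cytokine receptor that pro-B cells depend on, fell by 4.43 (SE 0.26), Flt3 was at least 12.9-fold lower and the surface marker Ly6d at least 1481-fold lower, while Jak3 differed by 0.41 (limma adjusted p = 0.0712). Of 17 mature B and plasma cell genes, 13 fell, 2 rose and 2 were not called (median -4.91). Only 8 of the 17 were well above background on every array. Jchain, which joins IgM and IgA units, was at least 1887-fold lower and Cd74 fell by 8.18. The 2 that rose were Sdc1 (2.15) and Prdm1 (1.24), which are also made by epithelial and germ line cells. In ES cells against the same BMMNC array, 21 of 21 receptor signalling genes, 14 of 17 transcription factors, 10 of 12 early lymphoid genes and 12 of 17 mature genes were called lower. Over all genes tested 34.7% were, and 92.7% of genes seen on the BMMNC array alone. No early lymphoid or mature B cell gene was called in iPS against ES cells, where 4.77% of all genes were.

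Paralogues of the members split. Of 15 tested, 9 were lower and 5 higher in iPS cells than in BMMNCs, and 1 was not called. Of the 15, 8 were well above background on every array. Over all genes 37.8% were called lower and 38.0% higher. Ebf3, a relative of Ebf1 known from neurons and mesenchyme, was at -2.57 and -2.73 in iPS lines 7 and 13, against -2.96 in ES cells, and not well above background in BMMNCs, at least 4.87-fold higher in iPS cells. Pax6, the eye and brain factor, rose by 1.17. Of the Ms4a genes, Ms4a4b fell by 6.82 and Ms4a6b by 6.61, while Ms4a7 rose by 0.76.

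**Figure D4:**
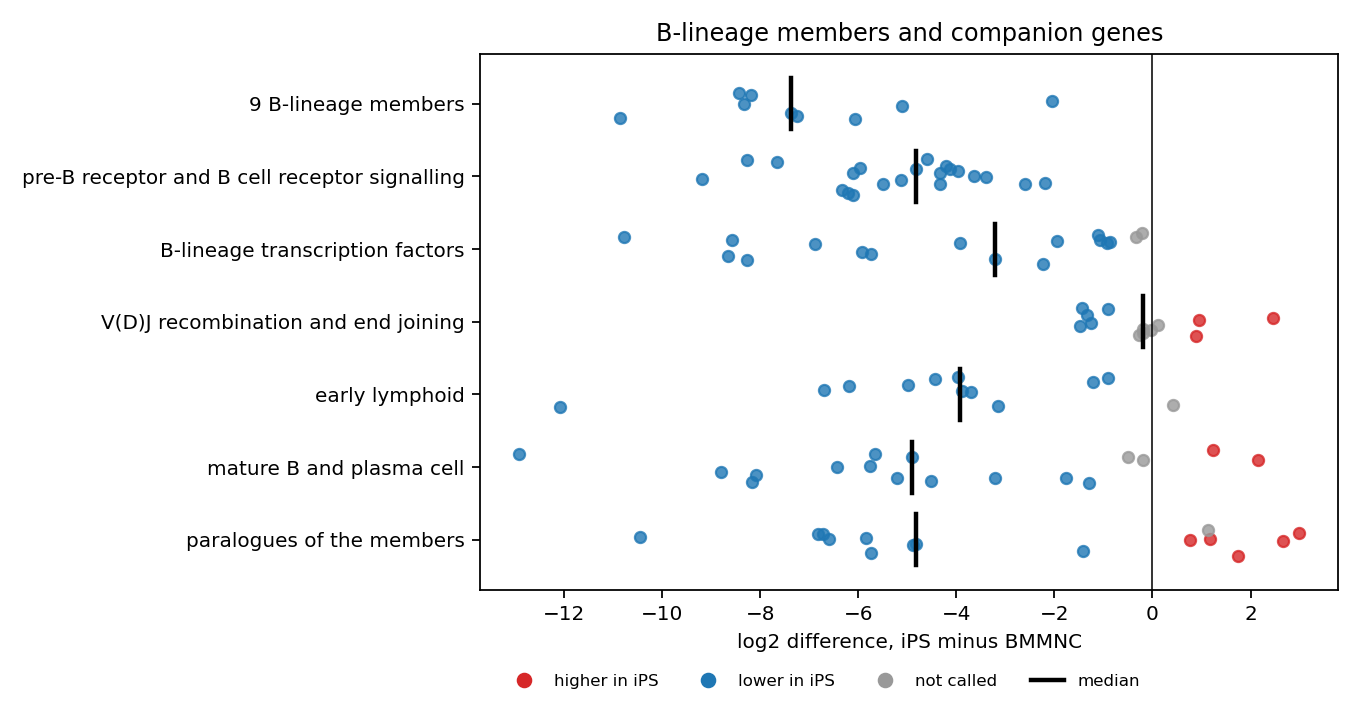
Difference of iPS lines from BMMNCs, in log2 units (x axis), for the 9 B-lineage members and for each list of companion genes (rows), with 1 point per gene and a bar at the median; colours show the limma call, and genes below background in iPS cells are drawn at their fitted value, which is no measured level. The members and the receptor signalling list lie wholly below 0, while the end joining list is centred near 0 with a median of -0.20.

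Likeness of pattern was measured over the 4 arrays, as the distance between levels centred on the mean of each gene, among 10004 other named genes above background on all arrays. The nearest gene to Cd79b was another member, Vpreb1, at a distance of 0.31, followed by Dok3 (0.34). Nearest to Vpreb1 were Pirb (0.12) and Dok3 (0.19), nearest to Dntt were Rac2 (0.078) and Ptprc (0.11), and nearest to Vpreb3 were H2-Ab1 (0.12) and Pi16 (0.32). H2-Ab1 was at -3.26 and -3.05 in iPS lines 7 and 13, against -2.19 in ES cells and 5.06 in BMMNCs. For Ebf1 the nearest were Mtarc2 (0.043) and F8a (0.047). Over so few arrays these distances are a description only.

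Other blood cells were in the same preparation. The sum of the 9 members, in multiples of the 75th percentile, was 0.878 and 1.01 in iPS lines 7 and 13, against 1.15 in ES cells and 167 in BMMNCs. The T and NK cell markers, 11 with a level of 13 listed, were all well above background in BMMNCs, against 5, 4 and 7 in iPS line 7, iPS line 13 and ES cells, with sums of 2.27, 2.24 and 2.60 there and 29.6 in BMMNCs. T cell precursors also use Rag1 and Dntt; Ptcra, the pre-T receptor chain, was in the background on all of them. Plasmacytoid dendritic cell markers, some of which share regulators with B cells, were well above background for 4 of 4 genes in BMMNCs, against 3 of 4 in each pluripotent array, with sums of 28.9, 30.3 and 16.4 in iPS line 7, iPS line 13 and ES cells and 73.0 in BMMNCs. By limma, 3 of these 4 genes were called lower and 1 higher in iPS cells than in BMMNCs. Over all genes tested, 37.8% were called lower and 38.0% higher. In ES cells all 4 were called lower than in BMMNCs, as 34.7% of genes were. Siglech, the most specific of the 4, was at -0.64 in BMMNCs and not well above background elsewhere. Of the 6 pan-blood markers 5 were well above background in each of the iPS and ES arrays, with sums of 1.64, 1.74 and 1.62 in iPS line 7, iPS line 13 and ES cells and 291 in BMMNCs. What part these cells have in the members' levels was not tested.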

How the data were processed

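Cy3-labelled RNA of iPS lines 7 and 13, ES cells and BMMNCs was hybridised to 1 array each. The authors read the arrays with Agilent Feature Extraction (version 9.5 in the submitters' processing notes, 9.5.1.1 in the headers). The headers place all 4 arrays on a single slide scanned once. Per the file headers, the deposited values are intensities after background subtraction and spatial detrending, and dim spots carry a substitute value. Other marks per spot, such as the flag for a signal well above background, were used as the authors deposited them; no member spot was saturated. The authors' deposited intensity table holds the processed signals, each array multiplied by its own factor; it is linear and not centred by gene, with medians of 135.9 (line 7), 133.6 (line 13), 139.9 (ES cells) and 106.2 (BMMNCs); how the factors were set is not given in the sources used here.

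After control and outlier spots were removed, repeat spots were averaged as log2 of the deposited intensity, and 14 probes without a usable spot on some array were dropped. A probe was well above background where at least 0.5 of its spots were. Accessions were named through the RefSeq table of GRCm38.p6 (22951 of 41174 probes); the arrays were designed on another build, so no probe coordinates are given. The brightest probe stood for a gene. limma 3.58.1 in R 4.3.3 was fitted to 21216 genes with a mean per group, with 1 residual and 1.80 prior degrees of freedom, and was tested on simulated data. The simulation gave every array of a gene the same spread. It therefore could not test whether the single ES and BMMNC arrays vary like the iPS lines. Nothing in the labels says the lines came from separate animals, so the p-values rest on how far these 2 lines differ, and that difference may be technical.

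The members, the lists and the rule for naming genes (members; from lists the first genes, the largest difference and the exceptions) were chosen with earlier results of these data known, and some genes in the text were named after their values were seen. Alternatives were normexp (on median signals, since the files hold no mean signal), quantile and median scaling, the deposited table, other filters, the mean of probes, an intensity trend, ES and iPS arrays as 1 group, and leaving out a line.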

Additional observations from a re-analysis of the deposited data

How the results depend on the processing

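The members' falls against BMMNCs kept their direction and call in all 77 gene results tested under the alternatives for iPS cells and all 77 for ES cells, and their direction without either iPS line, where there was no test. Sizes moved: with the mean of probes Rag1 was 132-fold lower in iPS and 122-fold lower in ES cells, both on fitted values that are no bound. Vpreb3 was 226-fold lower with ES and iPS arrays as 1 group. With only genes above background on all arrays, Cd79a, Ms4a1, Pax5 and Rag1 were left out. Then 5 of 5 remaining members were called and 5 were at least 4-fold lower, in iPS and in ES cells against BMMNCs. In iPS against ES cells the count of called members was 1, Vpreb3, in place of 0 with normexp (-0.74, limma adjusted p = 0.011), with only genes above background on all arrays (-1.08, adjusted p = 2.44e-06) and with an intensity trend (-1.08, adjusted p = 3.49e-08). The cause was not tested for any of these settings. Without 1 line, the members at least 2-fold apart ranged from 0 (without line 7) to 1 (without line 13), with Vpreb3 from -1.20 to -0.97. The sign of iPS minus ES held for Cd79b, Ebf1, Vpreb3 and Dntt under the alternatives and turned for the other 5, none of them called: it was positive for Cd79a at 0.089 (quantile), 0.075 (median scaling) and 0.022 (the authors' deposited table), Ms4a1 at 0.000499 (quantile), Pax5 at 0.10 (quantile) and 0.010 (median), Vpreb1 at 0.046 (median) and Rag1 at 0.10 (normexp) and 0.012 (quantile); the cause was not tested. Without line 7 it was also positive for these 5, at 0.11 for Cd79a and Ms4a1, 0.15 for Pax5, 0.012 for Vpreb1 and 0.088 for Rag1. For Cd79a, Ms4a1, Pax5 and Rag1 these signs come from signals below background on both sides and are no measured difference.

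Over all genes, iPS against ES calls by limma numbered 1013, but 640 with the mean of probes, 5140 with normexp, 7708 with a trend, 5778 with only genes above background on all arrays, and 0 with the authors' deposited table or no filter (6634 and 4719 at an unadjusted p under 0.05). The median of all genes in iPS minus BMMNC was -0.22 under median scaling, -0.20 under normexp and 0.12 in the authors' deposited table, far below the members' differences. Calls there split into 8054 higher and 8028 lower, against 7375 and 10020 with normexp. Leaving out a line left no residual degrees of freedom, so those values have no test, and ES cells and BMMNCs had no replicate to leave out. No paired analysis was possible because ES cells and BMMNCs have 1 array each and neither shares a number with an iPS line, so no comparison holds 2 pairs. Signal over background limits Cd79a, Ms4a1, Pax5 and Rag1 in iPS and ES cells to bounds, which are not strict.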
